A study of Mus musculus with 4 samples.

Results

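Oxidative phosphorylation couples the oxidation of NADH and succinate to the synthesis of ATP on the inner mitochondrial membrane. Complexes I and II pass electrons to ubiquinone, complex III passes them on to cytochrome c and complex IV gives them to oxygen, while complex V uses the proton gradient built by complexes I, III and IV to make ATP. Most subunits are encoded in the nucleus and the rest in mitochondrial DNA, so a complex needs transcripts of both genomes and a set of assembly factors. In vascular smooth muscle this supply of energy serves contraction and growth alongside glycolysis. The genes described here are the nuclear subunits, taken by gene symbol: those that start with Nduf, Uqcr, Cox4 to Cox8 or Atp5, with the succinate dehydrogenase genes Sdha to Sdhd, cytochrome c1 (Cyc1) and cytochrome c (Cycs). The symbols gave 94 members of 37524 genes on the array. Of these, 89 had a probe well above background (the scanner's own detection flag) on both arrays of at least 1 group and were tested, among 17660 tested genes. All 89 were well above background on all 4 arrays, so none passed through 1 group alone.

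The RNA came from smooth muscle cells that grew out of explanted aorta of adult C57BL/6J mice, and 1 single-colour Agilent array was run per culture. Control cultures (2) were left untreated for 24 h and PGE2 cultures (2) received prostaglandin E2, with the same time of 24 h, in cells kept in DMEM. Every culture, controls included, had the genotype EP4-Tg. EP4, encoded by Ptger4, is a PGE2 receptor that raises cyclic AMP, and the labels give neither the promoter of the transgene nor the dose of PGE2. The series' design calls the cultures biological replicates, without saying whether they came from separate mice, so every p-value measures the spread between these cultures. Levels are log2 intensities after subtraction of each array's 75th percentile, and a change is the PGE2 mean minus the control mean with its limma standard error (n = 2 per group). Levels of different probes are not set against each other.

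On the 4 arrays 47.9% to 53.8% of spots stood well above background, and arrays of the same group correlated at 0.974 and 0.978 across tested genes. The kept probe for Ptger4, well above background on 3 of the 4 arrays, stood at -3.92 and -1.97 in the controls and at -2.53 and -2.19 with PGE2, with overlapping groups. Of 10 smooth muscle markers, 6 were well above background on every array and Myocd on none. The summed level of all 10, by the brightest probe of each, went from 824 and 480 in the controls to 189 and 233 with PGE2 (linear scale, relative to the 75th percentile). The integrin gene Itga8 fell by 4.88 on the log2 scale (limma adjusted p = 0.0438). Actin alpha 2 (Acta2, -2.10, limma adjusted p = 0.152) and transgelin (Tagln, -1.79, limma adjusted p = 0.134) did not pass the test. Of 7 fibroblast markers 5 were well above background on all 4 arrays, and Dpt was on no array. The summed level of all 7 was 201, 94.7, 23.1 and 30.0 in the order control 1, control 2, PGE2 1 and PGE2 2. Among the 5 detected, Pi16 (2.78) stood higher with PGE2, and Dcn (-2.91), Lum (-2.17) and Scara5 (-1.36) stood lower. Pdgfra was at 0.60 ± 0.75 (SE) with overlapping groups, and 0 of the 5 passed the test. Of 8 macrophage markers 5 were well above background on all 4 arrays, while Adgre1, Aif1 and Lyz2 were on no array. The sum over all 8 was 77.7, 63.9, 61.5 and 41.3 in the same order. Here Cd68 (2.09), Csf1r (0.98) and Cd14 (0.62) stood higher with PGE2, Itgam (-0.61) and Ptprc (-0.36) lower, and 0 of the 5 passed. Of 8 striated muscle markers 3 were well above background on all 4 arrays, and Ckm and Myh7 were on no array. The sum over all 8 was 60.0, 25.2, 5.34 and 8.92. Of these 3, Actc1 (-2.58) and Tnnt2 (-1.96) stood lower with PGE2. Tnni3 was at 0.40 ± 0.39 (SE) with overlapping groups, and 0 of the 3 passed. Few endothelial markers (2 of 8), glial markers (2 of 4) and no adipocyte marker (0 of 6) were well above background on all 4 arrays. The part of these shifts in the values below was not tested, and fewer cells of a type cannot be told apart from less of its RNA per cell.

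No member of the family passed the test in either direction: limma called 0 of 89 higher and 0 of 89 lower, with a threshold of 0.05 on p-values adjusted by Benjamini and Hochberg's method over all tested genes. Over all genes 0.396% were called higher and 0.272% lower. The smallest adjusted p among members was 0.238 in limma. At an unadjusted p under 0.05, 0 members were higher and 2 were lower, the cytochrome oxidase genes Cox7a2l and Cox6b2, against 7.31% of all genes higher and 10.5% lower. The members' median change was 0.10, with 61 above 0 and 28 below, where all tested genes had a median of -0.03 and 47.3% above 0. This direction rested on 1 culture, since the members' median was -0.07 without control 2 and 0.24 without control 1, while all genes then stood at -0.05 and 0.01. It stayed above 0 under the other scalings (0.09 with median centring, 0.19 with quantile normalization, 0.21 with normexp and quantiles, and 0.35 on the authors' scaled signal, where all genes stood at 0.23). Of the 89 members, 84 (94.4%) lay within 0.5 log2 units of no change, against 72.2% of all genes. The standard errors ran from 0.15 to 0.42 with a median of 0.19, and a change had to be well above 1 standard error to be resolved. For example, Cyc1 stood at 0.41 ± 0.20 (SE), and its 95% interval, before any adjustment, still ran from -0.14 to 0.96. A place within 0.5 of no change therefore does not show that a member was unchanged.

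**Figure D1:**
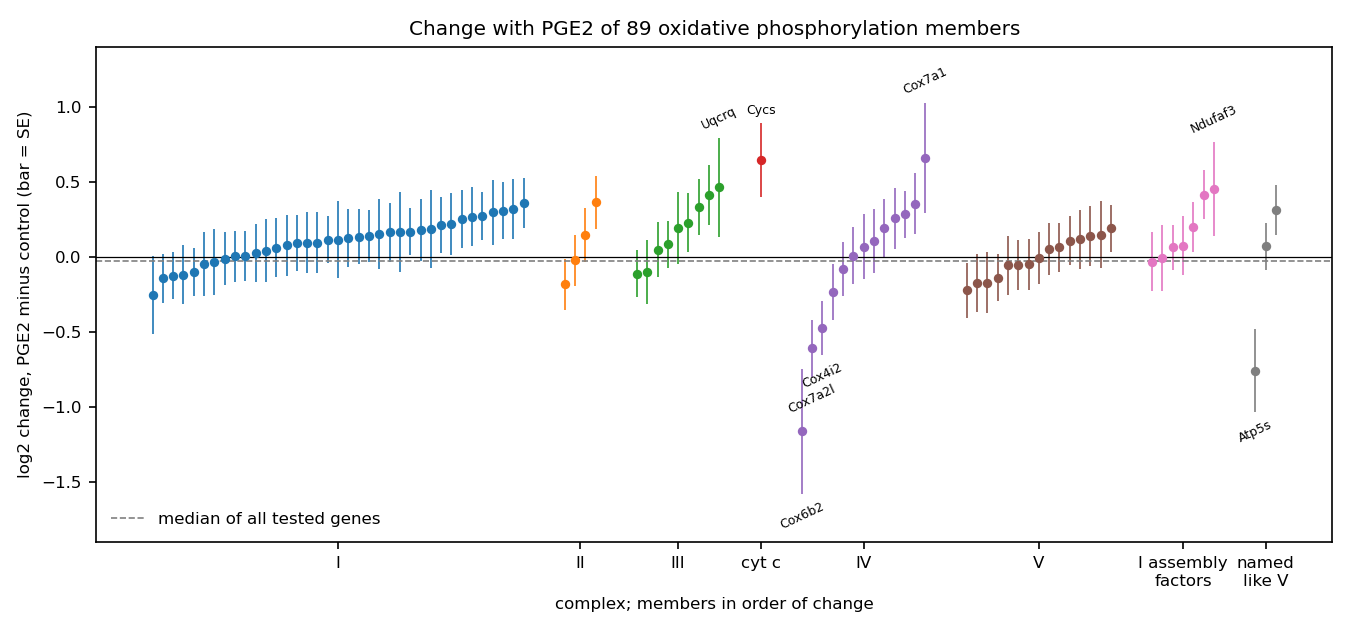
Log2 change with PGE2 (vertical axis, PGE2 minus control, bars are the limma standard error, n = 2 arrays per group) for the 89 tested members, grouped by complex and ordered by change within each. Most points lie within 0.5 of 0 and none passed the test, and the points farthest from 0 are Cox6b2 at -1.16, Atp5s at -0.76, Cox7a1 at 0.66 and Cycs at 0.65.

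For most members the gap between the control cultures was wider than the change with PGE2. Control 2 was below control 1 in 85 of 89 members (95.5%), with a median gap of -0.32, where 61.0% of all genes were lower and the median gap was -0.11. PGE2 2 was below PGE2 1 in 75 members, with a median gap of -0.10. In 69 members (77.5%) the change with PGE2 was smaller than the gap between the controls, which was so in 50.9% of all genes. Relative to each member's own mean, the median member stood at 0.12 and -0.19 on control 1 and control 2, and at 0.09 and -0.01 on PGE2 1 and PGE2 2. The medians of the PGE2 arrays thus lay between those of the controls, which need not hold for a single member. In complex III the median on PGE2 1 (0.18) was above that on control 1 (0.12). Both PGE2 arrays were above both controls in 24 members and below both in 11, and the groups overlapped in 54. These counts are 27.0% and 12.4% of the members, and the same held for 24.0% and 28.3% of all tested genes.

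**Figure D2:**
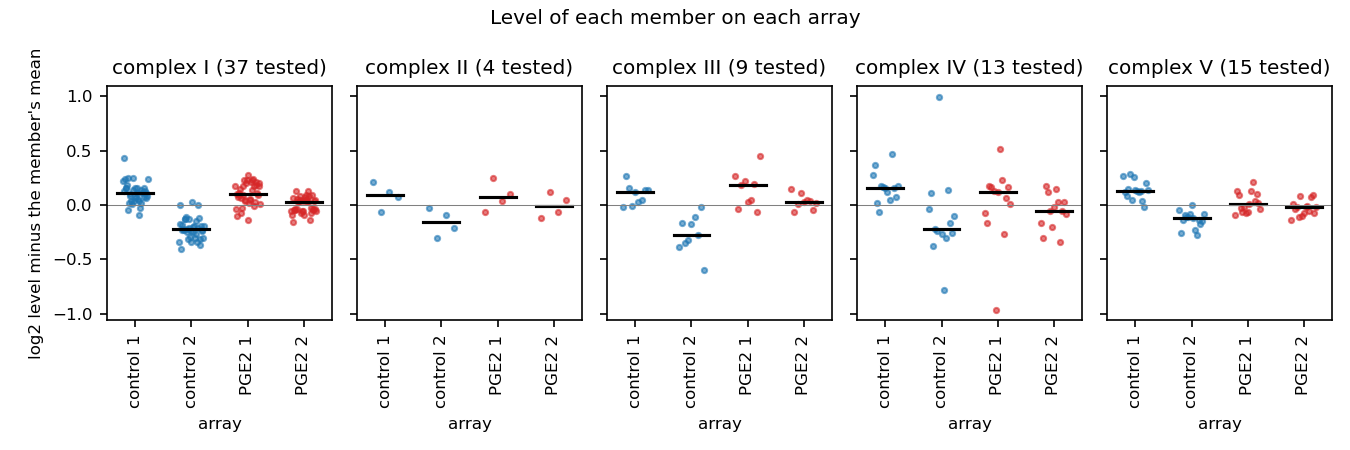
Level of each tested subunit on each array as log2 level minus that member's mean over the 4 arrays, with 1 panel per complex and black lines at the medians. In every complex the median on control 2 is the lowest of the 4, and in complex I it is -0.22 against 0.11 on control 1.

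Complex I, the NADH dehydrogenase that feeds most electrons into the chain, had 37 tested subunits with a median change of 0.12, 29 above 0 and 8 below. Its 7 core subunits, which carry the flavin and iron-sulfur clusters, had a median of 0.13, and its 30 accessory subunits, which frame the core, had a median of 0.11. Without control 2 the complex stood at -0.07. Control 2 was below control 1 in all 37. The core subunit Ndufs1 was at 3.72 and 3.36 in the controls and 3.94 and 3.78 with PGE2, a change of 0.32 ± 0.20 (SE). Its PGE2 arrays were both above its controls, but the change was smaller than the gap between the controls. Ndufv1, which binds NADH, stood at 4.75 and 4.46 in the controls and at 4.88 and 4.65 with PGE2, and the groups overlapped. Ndufs7, the core subunit nearest to ubiquinone, was 0.06 with overlapping groups, and it turned to -0.10 without control 2 and to -0.02 without PGE2 1. Among accessory subunits Ndufc1 had the highest value, from 4.86 and 4.68 to 5.18 and 5.08 (0.36 ± 0.16, limma adjusted p = 0.354), and its groups did not overlap. Ndufa11, which helps hold the membrane arm together, had the lowest, from 3.29 and 2.68 to 2.76 and 2.70 (-0.25 ± 0.26). There the high level of control 1 alone set the difference, since without control 1 the change was 0.05. Ndufa4, named for complex I and later placed in complex IV, stood at 3.55 and 3.37 in the controls and at 3.74 and 3.73 with PGE2. Counting it with complex IV moved the median of complex IV from 0.07 to 0.09.

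The 7 Ndufaf genes, which encode complex I assembly factors and not subunits, had a median of 0.07. Ndufaf3 was at 1.46, 0.78, 1.79 and 1.35 on control 1, control 2, PGE2 1 and PGE2 2 (0.45 ± 0.32). The low level on control 2 made most of that difference. Ndufaf4 was at -0.11 and 0.00 in the controls and at 0.28 and 0.45 with PGE2 (0.42 ± 0.16, limma adjusted p = 0.305), without overlap. Ndufaf7, which methylates a core subunit during assembly, was lowest at -0.03 ± 0.20, with overlapping groups, and it stood at 0.13 without control 1.

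Complex II, succinate dehydrogenase, is the only complex of the chain encoded wholly in the nucleus, and its 4 subunits divided evenly, 2 above and 2 below 0, with a median of 0.06 that turned to -0.06 without control 2. The iron-sulfur subunit Sdhb was at 4.56 and 4.31 in the controls and at 4.86 and 4.74 with PGE2 (0.36 ± 0.18, limma adjusted p = 0.374). Sdha, the flavoprotein that oxidises succinate, was at 3.97 and 3.73 against 3.70 and 3.64 (-0.18 ± 0.17). Both PGE2 arrays lay above the controls for Sdhb and below them for Sdha. The authors' scaled signal put Sdha at 0.08. The membrane anchors Sdhc (-0.02 ± 0.17) and Sdhd (0.14 ± 0.18) overlapped between groups, and Sdhc was 0.09 without control 1.

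Complex III, which carries electrons from ubiquinol to cytochrome c, had the highest median of the complexes at 0.19, with 7 of 9 above 0. Leaving out 1 control culture took it from 0.39 (without control 1) to 0.01 (without control 2). Cyc1, the haem subunit that hands electrons to cytochrome c, was at 4.59 and 4.22 in the controls and at 4.88 and 4.75 with PGE2 (0.41 ± 0.20, limma adjusted p = 0.374). Uqcrb, a small subunit at the ubiquinone site, was at 4.95 and 4.65 against 5.19 and 5.08 (0.33 ± 0.19). In both genes the groups did not overlap, and a further probe gave 0.45 for Cyc1 and 0.33 for Uqcrb. Uqcrq was highest, at 6.68, 5.95, 6.99 and 6.56 on control 1, control 2, PGE2 1 and PGE2 2 (0.46 ± 0.33), but its groups overlapped. The Rieske iron-sulfur protein Uqcrfs1 was 0.23 ± 0.19 and the core protein Uqcrc1 0.05 ± 0.18, both with overlap, and Uqcrc1 was -0.10 without control 2. The hinge protein Uqcrh, which helps bind cytochrome c, was lowest, from 6.87 and 6.71 to 6.67 and 6.69 (-0.11 ± 0.16), and it turned to 0.33 with quantile normalization, to 0.32 with normexp and quantiles, and to 0.15 on the authors' signal.

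Cytochrome c, the small haem protein that shuttles between complexes III and IV and that triggers apoptosis when it leaves the mitochondrion, had the highest change of the tested members after Cox7a1. Cycs was at 3.57 and 3.01 in the controls and at 3.99 and 3.89 with PGE2 (0.65 ± 0.25, or 1.57-fold, limma adjusted p = 0.293). Both PGE2 arrays lay above both controls, although the controls themselves differed by 0.56. A dimmer second probe gave 0.33, from 2.07 and 1.35 to 2.09 and 1.99, where control 1 overlapped with the PGE2 arrays. Over the 14 alternatives its change ran from 0.37 to 0.93 and did not turn, and limma's smallest adjusted p there was 0.144. Of these, the variance trend, the replicate block and the filter on all 4 arrays could not move a member's change.

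Complex IV, cytochrome c oxidase, held the widest range of the family, from -1.16 to 0.66, around a median of 0.07, and 8 of 13 tested members were above 0. Its median turned to -0.14 without control 2, to -0.02 without PGE2 1, and to -0.08 without the filter on dim probes, which adds the 4 forms below background. Cox7a2l had the smallest p of the 89 members. The protein, also called SCAFI, is known to join complex IV to complex III in supercomplexes. C57BL/6J mice are known for a short form of it, and the function of the form in these cells was not tested. The Cox7a2l level was 6.91 and 6.57 in the controls and 6.17 and 6.09 with PGE2, a change of -0.61 ± 0.19. Its 95% interval ran from -1.13 to -0.09 (unadjusted p = 0.0314 in limma's fit over all genes and adjusted p = 0.238). All 4 arrays were bright and the groups did not overlap. The change kept its sign in the 14 alternatives, not all of which could move it, from -0.78 to -0.20 (with quantile normalization). Cox6b2, the testis form of a subunit at the dimer interface, had the largest difference, at 0.66 and 1.49 in the controls and -0.47 and 0.29 with PGE2 (-1.16 ± 0.42, limma adjusted p = 0.275). Here the groups did not overlap but replicates of each lay far apart.

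Cox4i1, the common form of the subunit that carries the ATP-sensing site, was at 6.98 and 6.67 in the controls and 6.63 and 6.54 with PGE2 (-0.23 ± 0.19), but it was 0.20 with quantile normalization, 0.23 with normexp and quantiles and 0.02 on the authors' signal. Cox4i2, its form in lung and in low oxygen, went from 0.37 and 0.11 to -0.16 and -0.30 (-0.47 ± 0.18, limma adjusted p = 0.293). Its sign held in the 14 alternatives, not all of which could move it. Cox5a, the other early subunit of assembly, was at 5.43 and 5.03 against 5.59 and 5.59 (0.36 ± 0.20), and Cox6a1 was at 7.51 and 7.35 against 7.74 and 7.69 (0.28 ± 0.16). Neither overlapped, and both were higher with PGE2 in the 14 alternatives, with the same limit. Cox7a1, the form of heart and skeletal muscle, was dim, at -1.19, -2.09, -0.80 and -1.17 on control 1, control 2, PGE2 1 and PGE2 2 (0.66 ± 0.37), and its PGE2 2 array was hardly above control 1. Cox7a2, the form of most tissues, was 0.26 ± 0.20, Cox6b1 0.07 ± 0.22 and Cox8a -0.08 ± 0.18, all with overlap. Cox8a turned to 0.34 with quantile normalization. The muscle or germ-line forms Cox6a2, Cox7b2, Cox8b and Cox8c were above background on no array, and Ndufa4l2, a hypoxia-induced relative of Ndufa4, was so on at most 1 array. Cox5b was not analysed here.

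Complex V, the ATP synthase, had a median of -0.01 over 15 subunits, with 7 above 0 and 8 below. Its direction was not settled, as it stood at 0.21 with quantile normalization, at 0.26 with normexp and quantiles and at 0.25 on the authors' signal. All 15 were lower on control 2 than on control 1. The catalytic F1 part had a median of -0.05 (5 genes), the membrane ring -0.14 (3 genes) and the stalk and other membrane subunits 0.11 (7 genes). Atp5a1, the alpha subunit, was at 6.44 and 6.13 in the controls and 6.09 and 6.04 with PGE2 (-0.22 ± 0.18), but a second probe gave 0.00 and quantile normalization 0.18. Atp5b, the beta subunit with the catalytic sites, was at 6.41 and 6.04 against 6.42 and 6.30 (0.14 ± 0.20), and Atp5c1, the rotating gamma subunit, was 0.05 ± 0.17, each with overlapping groups. The highest subunit was Atp5k, which sits at the dimer of the synthase, from 4.66 and 4.50 to 4.78 and 4.76 (0.19 ± 0.16). The 3 genes of the c ring, which encode the same mature protein, were at -0.17 (Atp5g1), -0.14 (Atp5g2) and -0.01 (Atp5g3), with overlap in Atp5g1 and Atp5g3, but quantile normalization put Atp5g2 at 0.28 and Atp5g3 at 0.27. Their differences from one another ran from -0.04 to -0.17.

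Members named like complex V but outside it were the pseudogene Atp5c1-ps (0.07), whose probe may also read Atp5c1, and Atp5sl and Atp5s, now called Dmac2 and Dmac2l. Atp5s was at -1.74 and -2.35 in the controls and -2.64 and -2.96 with PGE2 (-0.76 ± 0.28, limma adjusted p = 0.282), and Atp5sl, a complex I assembly factor, was at 1.38 and 1.44 against 1.83 and 1.61 (0.31 ± 0.17). The groups of each did not overlap, and the genes stood on opposite sides of 0. Of 32 members with more than 1 kept probe, 5 had probes on both sides of 0: Atp5a1, Atp5j2, Ndufa10, Ndufa13 and Ndufb8. Ndufa13 had the widest spread, with 0.03 for the bright probe and -0.72 for a dim one.

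Subtracting, on each array, the offset shared by the family (the members' median deviation there) shows how members stood relative to each other. This centring was chosen after the values were seen, and it draws replicates together by construction, so it is given without a test. The median size of the gap between controls went from 0.32 to 0.09, and that between PGE2 arrays from 0.11 to 0.06. After it, 28 members had both PGE2 arrays above both controls, 29 had both below and 32 overlapped. These are 31.5% and 32.6% of the members, where the same centring gave 18.9% and 34.1% of all tested genes. The offset was the members' own, so these shares are not like for like. Before centring they were 27.0% and 12.4% of the members against 24.0% and 28.3% of all tested genes. After it 83 of 89 lay within 0.5 of 0. Cox7a2l stood at 0.35 and 0.33 in the controls and -0.35 and -0.33 with PGE2 around its own mean, a difference of -0.69. Replicates of each group thus lay about 0.02 apart. As further examples, chosen after their values were seen, for Cox4i2 the difference was -0.55, for Cox4i1 -0.31, for Atp5a1 -0.30 and for Sdha -0.26. On the high side were Cycs at 0.57, Cyc1 at 0.34, Sdhb at 0.29, Cox5a at 0.28 and Uqcrb at 0.26. In each of these 10 genes the arrays of the groups stayed apart. Quantile normalization, in place of this centring, put Cox4i1 at 0.20 and Atp5a1 at 0.18. Cox6b2 (-1.24), Atp5s (-0.83) and Cox7a1 (0.58) also stood far from 0, with replicates 0.21 to 1.14 apart.

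**Figure D3:**
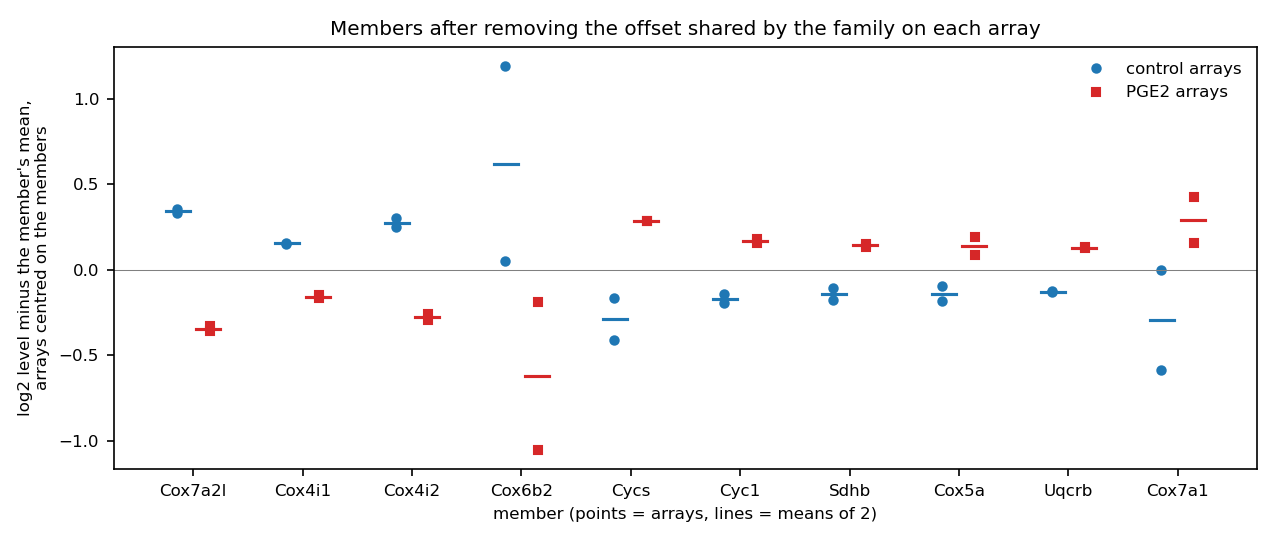
Levels of 10 members on each array after the offset shared by the family was removed, as log2 level minus the member's mean (circles are control arrays, squares PGE2 arrays, short lines the means of 2). Cox7a2l and Cox4i1 show the controls close together and above the PGE2 arrays, and Cyc1, Sdhb and Uqcrb show the reverse. Cycs also has its PGE2 arrays above its controls, but its controls lay 0.25 apart. Cox6b2 and Cox7a1 show replicates far apart. With quantile normalization in place of this centring, Cox4i1 turned to 0.20.

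Related forms of a subunit, and the supercomplex factor Cox7a2l with its relatives Cox7a1 and Cox7a2, were set side by side as differences within each array, in 8 pairs that could be measured. With 2 arrays per group an exact two-sided permutation test cannot go below 0.333. It could not show a difference for any pair, so only sizes are given. Cox7a2l against Cox7a2 differed by -0.87 between the groups, where the controls lay 0.01 and the PGE2 arrays 0.12 apart. Cox4i2 against Cox4i1 differed by -0.24, with replicates 0.06 and 0.05 apart. The shift of Cox6b2 against Cox6b1 (-1.23) was no larger than the gap between its controls, 1.23, and Cox7a1 against Cox7a2 (0.40) was smaller than its control gap of 0.55. In Cox7a1 against Cox7a2l the difference was 1.27, with controls 0.56 apart.

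Promoter sequence is shown for 4 members with differences of either sign, chosen after their values were seen, because factors known to serve respiratory genes (NRF1, GABP and YY1) and the cyclic AMP response element, a site of the pathway that EP4 couples to, have short known motifs. Windows of 300 bases (250 before the start of the transcript and 50 after) come from RefSeq on build GRCm38.p6, which is not the build of the array. Of 94 members 76 matched. The windows are those of Cycs (chr6:50566520-50566819, minus strand), Sdhb (chr4:140961021-140961320, plus strand), Cox7a2l (chr17:83514284-83514583, minus strand) and Cox7a1 (chr7:30183921-30184220, plus strand), written 5′ to 3′ with capitals for the motifs found on either strand.
Cycs: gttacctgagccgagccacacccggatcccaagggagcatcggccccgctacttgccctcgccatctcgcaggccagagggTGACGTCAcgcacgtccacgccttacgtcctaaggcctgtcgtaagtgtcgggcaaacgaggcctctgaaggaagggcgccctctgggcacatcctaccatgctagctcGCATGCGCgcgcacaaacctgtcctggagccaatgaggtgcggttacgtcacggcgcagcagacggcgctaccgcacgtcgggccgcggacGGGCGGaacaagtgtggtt
Sdhb: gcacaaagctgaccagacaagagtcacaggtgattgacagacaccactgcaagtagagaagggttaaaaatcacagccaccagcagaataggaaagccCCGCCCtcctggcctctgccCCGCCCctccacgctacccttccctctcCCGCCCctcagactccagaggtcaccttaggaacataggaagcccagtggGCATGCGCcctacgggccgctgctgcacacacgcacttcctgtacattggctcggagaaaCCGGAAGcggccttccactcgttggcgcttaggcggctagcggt
Cox7a2l: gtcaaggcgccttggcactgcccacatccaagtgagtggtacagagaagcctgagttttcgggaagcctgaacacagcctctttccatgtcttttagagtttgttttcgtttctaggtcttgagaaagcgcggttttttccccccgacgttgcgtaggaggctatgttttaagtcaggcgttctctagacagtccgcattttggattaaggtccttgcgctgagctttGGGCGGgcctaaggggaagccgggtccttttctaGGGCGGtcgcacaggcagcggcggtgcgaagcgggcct
Cox7a1: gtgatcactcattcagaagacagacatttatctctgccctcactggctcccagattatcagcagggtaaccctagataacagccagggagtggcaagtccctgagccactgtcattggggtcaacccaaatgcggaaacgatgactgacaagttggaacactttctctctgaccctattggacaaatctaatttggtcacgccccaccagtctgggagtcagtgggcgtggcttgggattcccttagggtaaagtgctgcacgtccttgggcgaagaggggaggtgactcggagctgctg
The Cycs window held 1 NRF1 core (GCGCATGC), 1 cyclic AMP response element (TGACGTCA) and 1 Sp1 box (GGGCGG). Sdhb had 1 NRF1 core, 1 ETS core (CCGGAAG, the motif of GABP) and 3 Sp1 boxes, Cox7a2l had 2 Sp1 boxes, and Cox7a1 held none of the 6 motifs searched. The motifs were searched on both strands, and none of the capitals in these 4 windows overlap one another. Among the 82 windows of members, 15.9% held the NRF1 core against 2.71% of 32851 windows of all genes, 20.7% held the ETS core against 8.86%, and 15.9% the YY1 core (AAGATGG) against 6.34%. The Sp1 box was in 43.9% against 35.7%, the cyclic AMP response element in 6.10% against 1.79%, and TATAAA in 9.76% against 13.6%. The windows of all genes include genes that were not tested here, and shares over the tested genes alone were not counted. These are descriptions of letters in a window and not of binding.

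The 5 members with the cyclic AMP response element were Cycs (0.65), Ndufb2 (0.25), Uqcrfs1 (0.23), Ndufa10 (-0.12) and Ndufa11 (-0.25), so that 3 were above 0 and 2 below. The 13 with the NRF1 core had a median change of 0.19, with 10 above 0, and the 61 other matched and tested members had 0.09, with 41 above 0. With the ETS core the 17 members had 0.10, with 12 above 0, and the 57 without it 0.11, with 39 above 0. For the YY1 core, 12 of 12 members were above 0 with a median of 0.14, against 39 of 62 without it and a median of 0.09. The medians were 0.19 and 0.19 with quantile normalization (11 of 12 and 49 of 62 above 0). They were 0.19 and 0.20 with normexp and quantiles (11 of 12 and 48 of 62). With the mean of a gene's probes they were 0.14 and 0.10 (10 of 12 and 39 of 62). Centred on the members they were 0.07 and 0.02 (8 of 12 and 32 of 62). Without control 2 the counts were 6 of 12 and 21 of 62, and for the NRF1 core 7 of 13 and 20 of 61. The 12 ran from Ndufs4 at 0.00 to Ndufc1 at 0.36, and none passed the test.

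Most subunits encoded in mitochondrial DNA stood below 0 at the main scaling, but their median turned from -0.22 to 0.09 with quantile normalization, to 0.09 with normexp and quantiles and to 0.03 on the authors' signal, so their direction was not settled. Of 11 tested, 0 passed in limma (0 also at an unadjusted p under 0.05). Over all tested genes 0.396% were called higher and 0.272% lower, and 7.31% and 10.5% at an unadjusted p under 0.05. In the list 10 were below 0, with both PGE2 arrays below both controls in 6 (28.3% of all tested genes). Without control 1 their median was -0.08 and without control 2 it was -0.37. In the controls COX2, the copper subunit of complex IV, stood at 8.45 and 8.14, and it was at 8.13 and 7.98 with PGE2 (-0.24 ± 0.19). Control 2 was lower than control 1 in 10 of these 11 as well, and for COX2 it lay close to PGE2 1. ND4L of complex I was lowest (-0.30 ± 0.19, limma adjusted p = 0.485). ND6, which alone among these is encoded on the light strand, was the exception and dim, at -0.81 and -0.48 in the controls and -0.48 and -0.08 with PGE2 (0.37 ± 0.23).

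Of the assembly factors of all complexes 0 of 48 tested passed limma's adjusted threshold (2 higher and 0 lower at an unadjusted p under 0.05). Over all tested genes the shares were 0.396% higher and 0.272% lower, and 7.31% and 10.5% unadjusted. Of the 48, 28 were above 0 and the median was 0.07, or -0.04 without control 2 and 0.22 without control 1. The list includes the Ndufaf genes and Atp5sl. The highest was Coa7, a haem-binding factor for complex IV, from -2.55 and -2.20 to -1.33 and -1.21 (2.15-fold, limma adjusted p = 0.117), and the lowest was the copper chaperone Sco1 (-0.35 ± 0.25). Coa7 was dim on every array, yet its PGE2 arrays were far above its controls. Among 18 tested regulators of respiratory genes and mitochondrial DNA, 0 passed (1 higher and 0 lower at an unadjusted p under 0.05), 9 were above 0 and the median was 0.01 (-0.01 with quantile normalization, -0.08 with the mean of a gene's probes, -0.03 without control 2 and 0.08 without control 1). Pprc1, a coactivator of the PGC-1 family, was highest, at 0.62 and 0.68 against 1.06 and 1.07 (0.41 ± 0.15, limma adjusted p = 0.278), and the mitochondrial polymerase Polg was lowest (-0.21 ± 0.15). Ppargc1a, Ppargc1b and Esrrg were not well above background on both arrays of either group.

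Enzymes that supply the chain had a median of 0.13 over 27 genes of pyruvate entry and the citric acid cycle, with 19 above 0. That median was 0.05 without control 2 and 0.24 without control 1. Limma called 0 of the 27 (2 higher and 1 lower at an unadjusted p under 0.05). Over all tested genes it called 0.396% higher and 0.272% lower, and 7.31% and 10.5% unadjusted. The extremes were Pdk4, a kinase that turns pyruvate dehydrogenase off (0.63 ± 0.65, its replicates over a log2 unit apart in both groups), and Suclg2, the GTP-forming subunit of succinyl-CoA synthetase. Suclg2 was at 0.69 and 0.86 in the controls and at -0.01 and 0.10 with PGE2 (-0.73 ± 0.16, limma adjusted p = 0.158), without overlap. Singled out after their values were seen, 4 subunits of pyruvate dehydrogenase had both PGE2 arrays above both controls. The same held for 9 of the 27 genes of this list (33.3%) and for 24.0% of all tested genes. Dld, another subunit of that complex, was at 0.11 ± 0.18 with overlapping groups. Pdha1 was at 3.20 and 3.16 against 3.69 and 3.90 (0.62 ± 0.17, limma adjusted p = 0.196), Pdhb was at 0.53, Dlat at 0.51 and Pdhx at 0.51. In the remaining list of carriers, ubiquinone synthesis and supercomplex factors, 0 of 24 passed (1 higher at an unadjusted p under 0.05) and the median was 0.12, or 0.08 without control 2. Coq7, the hydroxylase of ubiquinone synthesis, was at -0.26 and -0.10 in the controls and at 1.30 and 0.84 with PGE2 (1.25 ± 0.23, limma adjusted p = 0.118). The electron transfer flavoprotein subunit Etfb was lowest, at -0.40 ± 0.20.

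**Figure D4:**
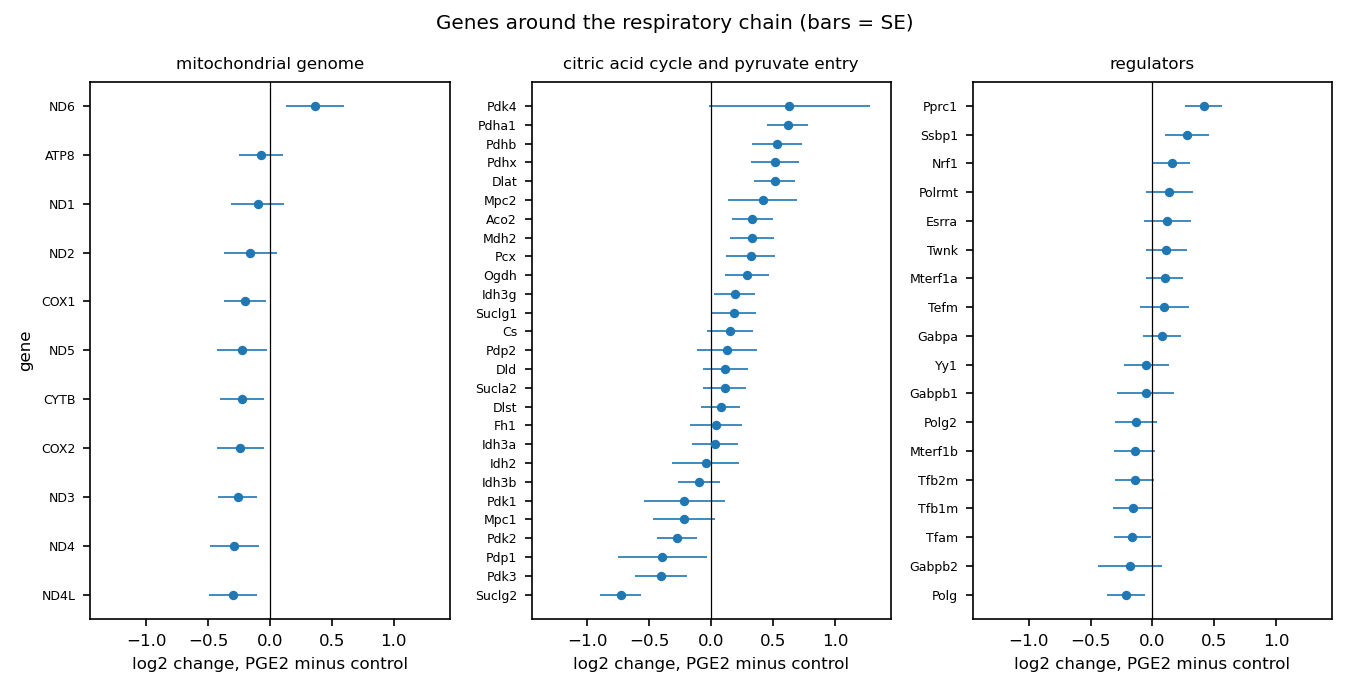
Log2 change with PGE2 (horizontal axis, bars are the limma standard error, n = 2 arrays per group) for subunits of the mitochondrial genome, enzymes of the citric acid cycle and pyruvate entry, and regulators. Of the 11 mitochondrial genes 10 lie below 0 at this scaling (7 lie above 0 with quantile normalization), Pdha1 (0.62) and Suclg2 (-0.73) lie far apart in the enzymes, and no gene shown passed the test.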

How the data were processed

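Gene expression was measured on 4 Agilent single-colour arrays, grouped by sample title. The deposited intensity per spot is Agilent Feature Extraction's processed signal (version 11.5.1.1, protocol GE1_1105_Oct12, build mm9, per the file headers; 12.0.3.1 per the submitters' processing notes). In the authors' deposited series file that intensity is multiplied by 1 constant per array (column medians 32.7, 42.9, 39.9 and 40.5 for control 1, control 2, PGE2 1 and PGE2 2) and the gene symbols were taken from it. Its 4 other columns of values per sample were not used.

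Control spots and outlier flags were left out, spots of a probe averaged, log2 taken and each array's 75th percentile subtracted. Probes well above background on both arrays of a group were kept (26100), with the brightest kept probe per gene (17660 genes). Limma 3.58.1 (R 4.3.3, with data.table in version 1.17.8) was fitted over all genes with lmFit and eBayes, on 2 residual degrees of freedom and a prior worth 2.15, with p-values adjusted by Benjamini-Hochberg at 0.05, after the steps were tested on simulated data. The number of arrays limits precision, and scaling hides a change shared by most transcripts. All arrays share 1 scan identifier, so no batch could be tested.

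Members and lists were chosen with earlier results of these data known. Text names any called member, the 5 highest and 5 lowest, the extremes of each complex, isoform pairs, redox and catalytic subunits, and each list's extremes; further genes are given as examples. The alternatives were quantile normalization, median centring, normexp (offset 50, on the median signal, as no mean signal was used here) with quantile normalization, the authors' scaled signal, a filter on all 4 arrays, no filter, the mean of a gene's probes, a variance trend, the replicate number as a block, each array left out, and other placings of Ndufa4 and the Ndufaf genes. Centring on the members was added after seeing the data.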

Additional observations from a re-analysis of the deposited data

How the results depend on the processing

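Limma called 0 members under every alternative that kept all 4 arrays. There 0 to 21 members were higher and 0 to 4 lower at an unadjusted p under 0.05. Of all genes limma called 0 on the authors' scaled signal, without the filter and centred on the members, and at most 172, with the replicate block. The 21 higher members were those on the authors' signal, where 4203 of 17660 genes had an unadjusted p under 0.05 in either direction. Relative to the main scaling, the authors' scaled signal moved the median of all genes from -0.03 to 0.23, the members' median to 0.35 and complexes I to V to 0.37, 0.32, 0.45, 0.33 and 0.25. Complex V stood at 0.21 with quantile normalization and 0.26 with normexp and quantile normalization. Leaving out each array in turn gave -0.066 to 0.27 for complex I, 0.014 to 0.39 for complex III, -0.14 to 0.27 for complex IV and -0.13 to 0.12 for complex V, and the arrays that set these ends were the controls. With the replicate block the members' median stayed at 0.10, 0 members were called and the smallest adjusted p in limma was 0.0674; the replicate gaps of control and PGE2 correlated at 0.424 over all genes and 0.739 over members, but 2 pairs do not show that equal numbers pair cultures.

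Of 38 named members, 22 kept their direction in all 14 alternatives. The variance trend, the replicate block and the filter on all 4 arrays left each member's change as it was, so they could not turn a direction. Quantile normalization turned Uqcrh to 0.33, Atp5a1 to 0.18, Cox4i1 to 0.20, Cox8a to 0.34, Atp5g2 to 0.28 and Atp5g3 to 0.27. With normexp and quantile normalization these were 0.32, 0.24, 0.23, 0.31, 0.29 and 0.29, and Cox6b1 was -0.025. The authors' signal turned Ndufa11 to 0.00354, Uqcrh to 0.15, Ndufaf7 to 0.23, Sdha to 0.075, Atp5a1 to 0.035, Sdhc to 0.24, Cox4i1 to 0.023, Cox8a to 0.18, Atp5g1 to 0.084, Atp5g2 to 0.12 and Atp5g3 to 0.25. Centring on the members turned Ndufs7 to -0.014, Uqcrc1 to -0.028, Atp5c1 to -0.023 and Cox6b1 to -0.0085. Leaving out each array in turn gave ranges on both sides of 0 for Ndufa11 (-0.56 to 0.048), Ndufaf7 (-0.19 to 0.13), Sdhc (-0.13 to 0.086), Cox8a (-0.22 to 0.058), Atp5g3 (-0.13 to 0.12), Ndufs7 (-0.10 to 0.23), Uqcrc1 (-0.10 to 0.20), Atp5b (-0.047 to 0.32), Atp5c1 (-0.059 to 0.17) and Cox6b1 (-0.14 to 0.27). The cause was not tested. A lone array left in a group was assumed to vary like the other group's pair.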
